A study of Mus musculus with 26 samples.

Results

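The expression of 10 genes that are known targets of the transcription factor p53 or act in growth arrest was followed in the proximal small intestine (SI) of mice with a gene knockout in intestinal epithelial cells (IECs). The 10 genes, *Cdkn1a*, *Mdm2*, *Ccng1*, *Trp53inp1*, *Phlda3*, *Bax*, *Bbc3*, *Fas*, *Sesn1* and *Sesn2*, were chosen by name for their roles in cell cycle arrest, apoptosis and metabolic stress, and all 10 were found among the 55487 genes of the count table. Knockout mice (labelled tg) carried loxP-flanked (fl/fl) alleles and the *Villin*-creERT2 transgene, in which the *Villin* promoter restricts the tamoxifen-dependent Cre recombinase to IECs, and control mice (labelled wt) were fl/fl littermates without the transgene. Every mouse, control or knockout, was 8 to 12 weeks old, had a C57BL/6N background and received tamoxifen on 5 consecutive days. RNA-seq of the 3′ ends of transcripts was done on whole proximal SI tissue, including the lamina propria and muscle, of 7 knockout and 7 control mice 3 days after the last injection, and of 6 knockout and 6 control mice 7 days after it, with 1 library per mouse. In such bulk samples fewer cells of a type and less RNA per cell cannot be told apart. The study set out to learn what mitochondria do in IECs, and the comparison made here is whether the p53 target and growth arrest genes differed between the genotypes at each day.

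p53 is a transcription factor that is held at a low level by the ubiquitin ligase MDM2 and accumulates after DNA damage and other stresses. It then activates genes that stop the cell cycle, genes of the mitochondrial and death receptor pathways of apoptosis, genes that adjust metabolism, and *Mdm2* itself, which closes a negative feedback loop. In the intestine the dividing cells sit in the crypts, and p53 with its targets is best known there for the response of crypt cells to radiation. Several of these genes, *Sesn2* among them, can also be activated without p53, for instance by ATF4, the transcription factor of the integrated stress response.

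p53 binds DNA at pairs of a consensus decamer, and the promoter sequences of the 10 genes were searched for it so that the changes reported below can be read beside the sequence. RefSeq promoter windows (build GRCm38.p6, from 250 bases before to 50 bases after a transcription start) were found for 9 of the 10 genes, 13 windows in all. The decamer, a palindrome of 10 bases for which 1 search reads both strands, matched in 5 of the 13 windows, 1 window in each of 5 genes, against 8.36% of 32544 promoter windows of the genome. These 5 windows follow, written 5′ to 3′ on the strand of the gene, with the matches in capitals.
Cdkn1a promoter 1, chr17:29090729-29091028, + strand: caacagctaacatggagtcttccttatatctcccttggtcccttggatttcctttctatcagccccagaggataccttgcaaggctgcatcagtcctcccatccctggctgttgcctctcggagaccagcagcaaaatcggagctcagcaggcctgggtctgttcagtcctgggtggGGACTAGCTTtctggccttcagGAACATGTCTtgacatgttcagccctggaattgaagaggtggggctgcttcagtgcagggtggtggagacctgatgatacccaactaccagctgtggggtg
Mdm2 promoter, chr10:117710709-117711008, - strand: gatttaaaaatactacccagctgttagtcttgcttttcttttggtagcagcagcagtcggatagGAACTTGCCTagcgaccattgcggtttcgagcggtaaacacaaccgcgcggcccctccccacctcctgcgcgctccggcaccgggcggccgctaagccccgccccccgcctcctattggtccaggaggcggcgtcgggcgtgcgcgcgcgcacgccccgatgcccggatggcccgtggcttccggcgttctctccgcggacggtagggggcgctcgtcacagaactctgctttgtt
Ccng1 promoter, chr11:40755237-40755536, - strand: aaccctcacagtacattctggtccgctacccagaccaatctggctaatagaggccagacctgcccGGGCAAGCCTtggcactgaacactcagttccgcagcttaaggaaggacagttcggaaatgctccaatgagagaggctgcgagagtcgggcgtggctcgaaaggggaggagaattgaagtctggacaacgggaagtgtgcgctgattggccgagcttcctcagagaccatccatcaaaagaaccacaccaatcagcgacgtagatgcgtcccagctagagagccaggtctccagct
Bax promoter, chr7:45466849-45467148, - strand: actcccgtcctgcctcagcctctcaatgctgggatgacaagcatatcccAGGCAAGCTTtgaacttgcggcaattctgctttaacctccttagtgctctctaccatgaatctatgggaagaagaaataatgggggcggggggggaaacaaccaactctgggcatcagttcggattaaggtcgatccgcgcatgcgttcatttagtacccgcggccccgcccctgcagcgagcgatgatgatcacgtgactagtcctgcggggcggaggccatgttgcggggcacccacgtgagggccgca
Sesn1 promoter 2, chr10:41887189-41887488, + strand: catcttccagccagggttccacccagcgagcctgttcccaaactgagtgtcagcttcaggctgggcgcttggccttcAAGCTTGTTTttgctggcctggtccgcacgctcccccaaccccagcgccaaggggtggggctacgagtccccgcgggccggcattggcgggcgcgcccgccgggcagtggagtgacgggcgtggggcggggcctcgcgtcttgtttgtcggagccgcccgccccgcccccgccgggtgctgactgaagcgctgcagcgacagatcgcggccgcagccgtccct
In the first *Cdkn1a* window the decamer occurred at position -73 (GGACTAGCTT) and again at -51 (GAACATGTCT), counted from the transcription start, with 12 bases between the matches. A pair of decamers no more than 13 bases apart was present in 0.0737% of all windows, and among the 9 genes it was found in *Cdkn1a* only. Counted from the second annotated start of *Cdkn1a*, the matches begin at -2863 and -2841. Single matches were present at -186 in *Mdm2* (GAACTTGCCT), at -185 in *Ccng1* (GGGCAAGCCT), at -201 in *Bax* (AGGCAAGCTT) and at -173 in the second window of *Sesn1* (AAGCTTGTTT). No decamer was in the windows of *Phlda3*, *Bbc3*, *Fas* and *Sesn2*. The search took exact matches only, so sites with a mismatch or outside these windows were not sought. In *Cdkn1a* the bases tgacatgttc, directly after the match at -51, are such a decamer with a mismatch and were left unmarked. The C/EBP-ATF response element bound by ATF4, searched as TGATGNAA and TTNCATCA, was in none of the 13 windows and in 3.91% of all windows, which says only that these letters do not occur in these windows. The matches were present in genes that rose at 7 days (*Cdkn1a*, *Ccng1*, *Bax*), in 1 that fell (*Sesn1*) and in 1 that did not pass the test (*Mdm2*). Of the genes whose windows held no decamer, *Phlda3*, *Sesn2* and *Bbc3* also rose at 7 days and *Fas* fell.

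Library totals ranged from 3720168 to 6338016 counts. Libraries held RNA of neighbouring organs in differing amounts. Summed stomach epithelium markers exceeded 5000 CPM (counts scaled by the library total) in knockout replicate 1 and control replicate 5 at 3 days and in control replicate 2 at 7 days (9861 to 24410 CPM), and Brunner gland markers were at 28290 to 63250 CPM in these 3 libraries. Pancreatic acinar markers exceeded 10000 CPM in knockout replicate 2 and control replicate 2 at 3 days and in knockout replicate 4 at 7 days (11560 to 20350 CPM). Group medians, all below these cutoffs, differed by genotype too, but the libraries of each group ranged widely around the acinar medians. At 3 days the stomach marker median was 87.2 CPM in control and 10.35 CPM in knockout mice, and the acinar median 346 and 23.8 CPM. The 7-day medians were 17.7 and 1.38 CPM for stomach and 370 and 0.90 CPM for acinar markers. Acinar levels ranged from 8.11 to 12530 CPM in control and 9.44 to 20350 CPM in knockout mice at 3 days. At 7 days they ranged from 0 to 2717 and from 0.36 to 11560 CPM. Of the acinar markers 0 of 7 tested passed at 3 days and 0 of 4 at 7 days (median log2 fold changes 0.26 and 1.31). Without the pancreas-rich libraries 0 of 7 and 0 of 2 passed (medians -3.63 and -2.69). Control replicates 7 (2728 CPM of stomach markers) and 3 (7589 CPM of acinar markers) at 3 days stayed in the fits that left libraries out. Leaving out the libraries above a cutoff ended some calls of genes named here. It also moved some counts of listed genes past the adjusted threshold by over 1.5 times. Both values are given in each case.

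At 3 days, 3 of the 10 genes were higher in knockout than in control mice, *Cdkn1a*, *Sesn2* and *Bax*, and 0 were lower (edgeR quasi-likelihood test, Benjamini-Hochberg adjusted p under 0.05 over the 20760 genes tested). Over all genes tested, 1.43% passed at that day (1.11% higher and 0.323% lower in the knockout). At an unadjusted p under 0.05, 4 of the 10 were higher and 1 lower, and DESeq2 called 4 higher and 0 lower. At 7 days, 6 of the 10 genes were higher (*Phlda3*, *Sesn2*, *Ccng1*, *Cdkn1a*, *Bax* and *Bbc3*) and 2 were lower (*Sesn1* and *Fas*), while 38.5% of the 20259 genes tested passed, 19.7% higher and 18.8% lower. The median log2 fold change of the 10 genes was 0.33 at 3 days and 1.14 at 7 days, and that of all genes was -0.03 and -0.02. All 10 genes passed the filter on low counts in each comparison.

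**Figure D1:**
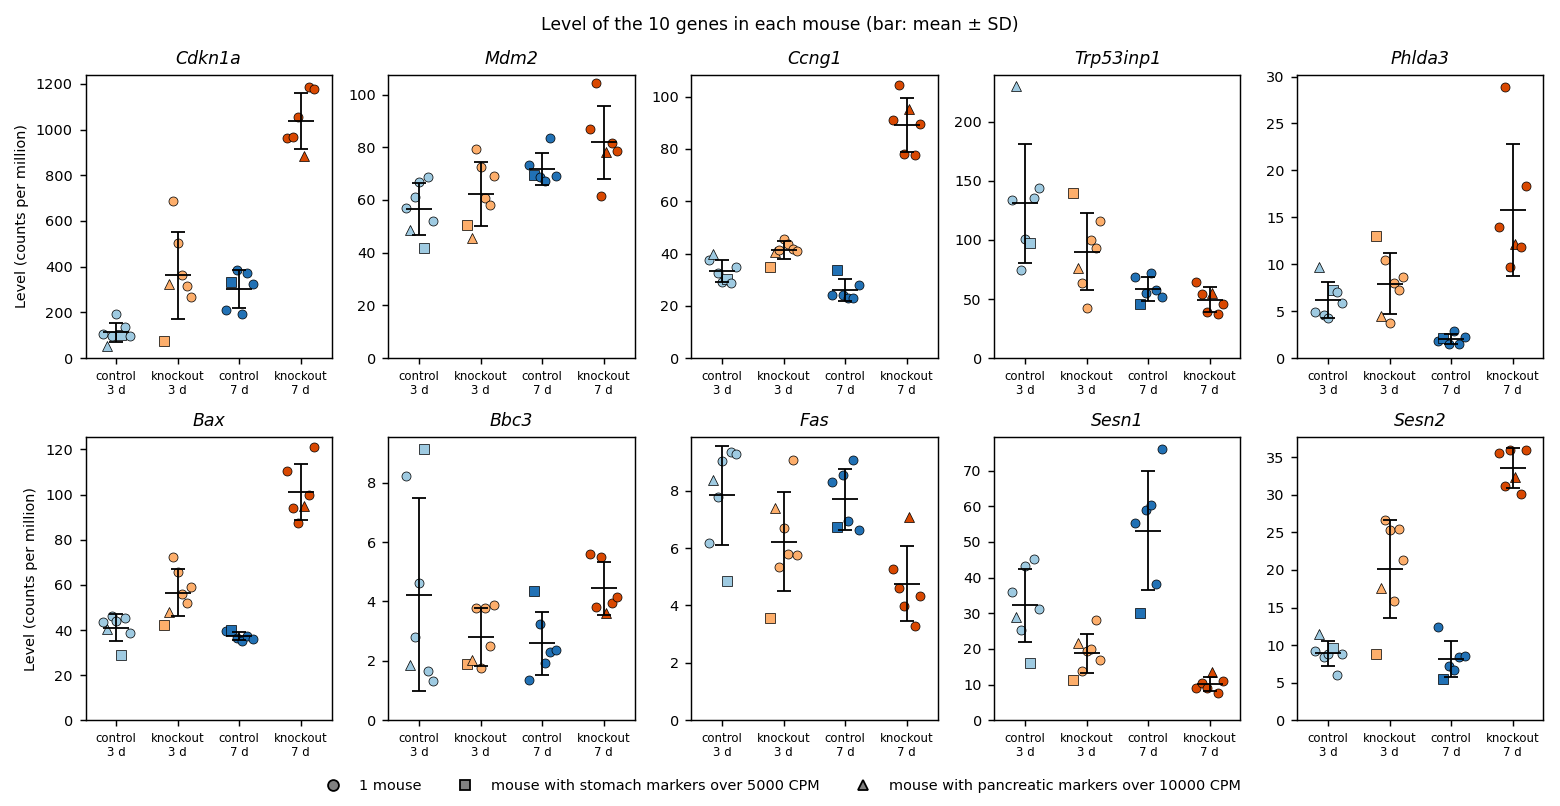
Level of each gene (y axis, CPM, linear from 0) in each of the 26 mice, by genotype and day (x axis); bars are the mean ± SD, squares and triangles mark the libraries with stomach and pancreatic markers. At 7 days the 6 knockout mice lay above all 6 control mice for *Cdkn1a*, *Ccng1*, *Phlda3*, *Bax* and *Sesn2*, and below them for *Sesn1*.

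*Cdkn1a* (ENSMUSG00000023067, chr17:29090976-29100727, + strand, GRCm38) encodes p21, the inhibitor of cyclin-dependent kinases through which p53 halts the cell cycle. At 3 days its level ranged from 75.5 to 685.5 CPM in knockout mice, with a median of 322 CPM, and from 53.8 to 194 CPM in control mice, with a median of 102 CPM. By 7 days knockout mice ranged from 884 to 1184 CPM (median 1010 CPM) and control mice from 192 to 384 CPM (median 330 CPM). The groups overlapped at 3 days through a single mouse, knockout replicate 1, which was below 6 of the 7 control mice, whereas the other 6 knockout mice exceeded the highest control, and at 7 days the groups did not overlap. *Cdkn1a* was 3.53-fold higher in knockout mice at 3 days (log2 fold change 1.82 ± 0.36 SE, n = 7 per group, adjusted p = 0.015) and 3.46-fold higher at 7 days (1.79 ± 0.18, n = 6, adjusted p = 1.7e-07). The size of the knockout effect differed by -0.01 ± 0.43 between the days on the log2 scale (interaction term, adjusted p = 0.99), and 2 SE around that estimate span -0.875 to 0.854. In control mice *Cdkn1a* itself was 1.77 ± 0.32 higher at 7 than at 3 days (log2, adjusted p = 0.00011), so that the 3-day knockout mice and the 7-day control mice had similar levels, 362 ± 191 and 303 ± 82.4 CPM (mean ± SD). Without knockout replicate 1, the 3-day log2 fold change was 2.003, and without the pancreas-rich libraries it was 1.71 with an adjusted p of 0.054. On the opposite strand, AC167363.2 shares 7.68% of the exon bases of *Cdkn1a* and had 2.69 counts on average.

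*Ccng1* (chr11:40748552-40755311, - strand) encodes cyclin G1, a p53 target that binds protein phosphatase 2A and acts on MDM2. Its 3-day level was 34.7 to 45.6 CPM in knockout mice, with a median of 41.5 CPM, and 28.7 to 39.8 CPM in control mice, with a median of 32.7 CPM. At 7 days the ranges were 77.5 to 104 CPM (median 90.3 CPM) and 22.9 to 33.9 CPM (median 24.2 CPM). Of the 7 knockout mice at 3 days, 6 exceeded the highest control, and at 7 days the groups did not overlap. The 3-day difference of 0.42 ± 0.12 on the log2 scale did not pass (adjusted p = 0.093), and the 7-day difference of 1.81 ± 0.11, a 3.5-fold higher level, did (adjusted p = 2.8e-10). Leaving out the stomach-rich libraries brought the 3-day difference past the threshold (0.47, adjusted p = 0.033). The knockout effect grew by 1.40 ± 0.15 between the days (adjusted p = 1.5e-07). Control mice did not pass the test between the days (log2 -0.04 ± 0.11, adjusted p = 0.79), and the knockout mice rose by 1.36 (adjusted p = 9.7e-11).

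*Mdm2* (chr10:117688875-117710758, - strand), the ubiquitin ligase of the p53 feedback loop, did not pass at either day. In knockout mice it was at 45.7 to 79.2 CPM at 3 days and 61.6 to 104 CPM at 7 days, and in control mice at 41.9 to 68.8 CPM and 67.3 to 83.4 CPM. The groups overlapped at both days, with 3 of 7 and 2 of 6 knockout mice above the highest control. The log2 difference was 0.24 ± 0.14 at 3 days (adjusted p = 0.47) and 0.21 ± 0.11 at 7 days (adjusted p = 0.15), and 2 SE around the 7-day value span -0.01 to 0.43. *Mdm2* was higher at 7 than at 3 days in control mice (log2 0.66, adjusted p = 0.00018) and in knockout mice (0.65, adjusted p = 0.00014).

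*Phlda3* (chr1:135766119-135769136, + strand), a p53 target that represses the kinase AKT at the membrane, had the largest difference among the 10 genes at 7 days. At 3 days it was at 3.73 to 13.03 CPM in knockout mice (median 8.06 CPM) and 4.26 to 9.67 CPM in control mice (median 5.84 CPM). At 7 days it was at 9.67 to 28.9 CPM (median 13.1 CPM) and 1.54 to 2.89 CPM (median 2.02 CPM). The 3-day groups overlapped through most of their range and the 7-day groups did not overlap. The 3-day difference of 0.43 ± 0.25 (log2) did not pass (adjusted p = 0.49), and at 7 days *Phlda3* was 7.88-fold higher in knockout mice (log2 2.98 ± 0.27, adjusted p = 5.4e-08). Both genotypes moved between the days, in opposite directions: control mice fell by 1.30 (log2, adjusted p = 0.0012) and knockout mice rose by 1.27 (adjusted p = 0.00015), and the change of the knockout effect was 2.56 ± 0.39 (adjusted p = 1.7e-05). The depth behind these values was modest, with 8 to 15 counts per control library at 7 days and 51 to 182 per knockout library.

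*Bax* (chr7:45461697-45466898, - strand) encodes the protein that forms pores in the outer mitochondrial membrane in apoptosis. Its level at 3 days was 42.4 to 72.4 CPM in knockout mice, with a median of 56.2 CPM, and 28.8 to 46.0 CPM in control mice, with a median of 43.6 CPM. At 7 days it was 87.4 to 121 CPM (median 97.4 CPM) against 35.2 to 40.0 CPM (median 37.0 CPM). Again 6 of 7 knockout mice at 3 days, and all 6 at 7 days, exceeded the highest control. *Bax* was 1.49-fold higher at 3 days (log2 0.58 ± 0.14, adjusted p = 0.042) and 2.75-fold higher at 7 days (1.46 ± 0.10, adjusted p = 1.1e-09), and the effect grew by 0.90 ± 0.16 between the days (adjusted p = 0.00019). The 3-day call was near its threshold: it was lost in 13 of the 14 fits that left out a single mouse, the one exception being knockout replicate 1, with adjusted p up to 0.11, and without the pancreas-rich libraries (0.12). *Gm45808*, on the same strand, shares 12.2% of the exon bases of *Bax* and averaged 1 count.

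*Bbc3* and *Fas* stand for both arms of apoptosis and moved in opposite directions at 7 days. *Bbc3* (chr7:16308393-16318205, + strand) encodes PUMA, a BH3-only protein that acts upstream of BAX, and was at a low level of 5 to 40 counts per library. It was at 1.77 to 3.90 CPM in knockout and 1.33 to 9.14 CPM in control mice at 3 days, and at 3.62 to 5.61 CPM and 1.35 to 4.34 CPM at 7 days. The groups overlapped at both days. The 3-day difference was -0.50 ± 0.42 (log2, adjusted p = 0.66) and the 7-day difference 0.81 ± 0.26, a 1.76-fold higher level (adjusted p = 0.021). That call was lost in 4 of 12 fits without a single mouse (adjusted p up to 0.062) and in the fit of all 26 libraries (0.10), and the change of the effect between the days did not pass (1.33 ± 0.53, adjusted p = 0.083). *Fas* (chr19:34290666-34327772, + strand), a death receptor of the cell surface, was at 3.29 to 7.06 CPM in knockout and 6.63 to 9.05 CPM in control mice at 7 days, with 5 of 6 knockout mice below the lowest control and 1 (replicate 4) within the control range. It fell by 0.68 ± 0.20 on the log2 scale at 7 days, a 1.6-fold lower level (adjusted p = 0.011), and at 3 days, with 3.57 to 9.06 CPM against 4.84 to 9.36 CPM, the difference was -0.20 ± 0.22 (adjusted p = 0.74). Between the days its effect changed by -0.45 ± 0.29 (adjusted p = 0.31).

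*Trp53inp1* (chr4:11156431-11174379, + strand), which encodes a p53-induced stress protein with roles in apoptosis and autophagy, did not pass at either day. Knockout mice had 42.7 to 140 CPM at 3 days and 37.4 to 64.5 CPM at 7 days, and control mice 74.9 to 230 CPM and 46.0 to 71.8 CPM, with overlapping groups. The log2 differences were -0.45 ± 0.23 (adjusted p = 0.44) and -0.22 ± 0.14 (adjusted p = 0.25). From 3 to 7 days it fell by 0.84 in control mice (log2, adjusted p = 0.0030) and by 0.60 in knockout mice (adjusted p = 0.028). The latter call was lost in 6 of 13 fits without a single mouse (knockout replicates 1, 5 and 7 at 3 days and 3, 5 and 6 at 7 days, adjusted p up to 0.088) and without the stomach-rich libraries (0.073).

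The sestrins, stress proteins that restrain the growth kinase complex mTORC1 and limit oxidative damage, split by gene. *Sesn2* (chr4:132492032-132510501, - strand), which also acts as a leucine sensor, was at 8.83 to 26.6 CPM in knockout mice at 3 days (median 21.3 CPM) and 6.03 to 11.5 CPM in control mice (median 8.87 CPM). At 7 days it was at 30.1 to 36.0 CPM (median 34.0 CPM) against 5.43 to 12.4 CPM (median 7.83 CPM). At 3 days 6 of 7 knockout mice exceeded the highest control, replicate 1 being the exception, and at 7 days the groups were apart. *Sesn2* was 2.44-fold higher at 3 days (log2 1.29 ± 0.22, adjusted p = 0.0049) and 4.17-fold higher at 7 days (2.06 ± 0.16, adjusted p = 7.4e-09). It was the only one of the 3 genes called at 3 days that stayed past the threshold both without the stomach-rich libraries (1.46, adjusted p = 5.9e-05) and without the pancreas-rich ones (1.37, adjusted p = 0.017) as well as in every fit without a single mouse and with marker scores as covariates, though not in the fit with a replicate block (adjusted p = 0.060). The growth of its effect between the days, 0.80 ± 0.29, did not pass (adjusted p = 0.053).

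*Sesn1* (chr10:41809935-41908424, + strand) moved the other way. It was at 11.4 to 28.0 CPM in knockout mice at 3 days (median 19.5 CPM) and 16.1 to 45.3 CPM in control mice (median 31.1 CPM). At 7 days it was at 7.57 to 13.4 CPM (median 9.79 CPM) against 29.97 to 76.0 CPM (median 57.2 CPM). The 3-day groups overlapped, although 0 of 7 knockout mice reached above the control median, and the 7-day groups did not overlap. *Sesn1* was 5.19-fold lower in knockout mice at 7 days (log2 -2.37 ± 0.20, adjusted p = 2.6e-08), the 3-day difference of -0.66 ± 0.23 did not pass (adjusted p = 0.18), and the change of the effect was -1.70 ± 0.32 (adjusted p = 0.00028). As for *Phlda3*, the genotypes moved apart over time: control mice rose by 1.05 (log2, adjusted p = 0.00045) and knockout mice fell by 0.65 (adjusted p = 0.028, lost in 8 of 13 fits without a single mouse and, at 0.057, without the pancreas-rich libraries).

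**Figure D2:**
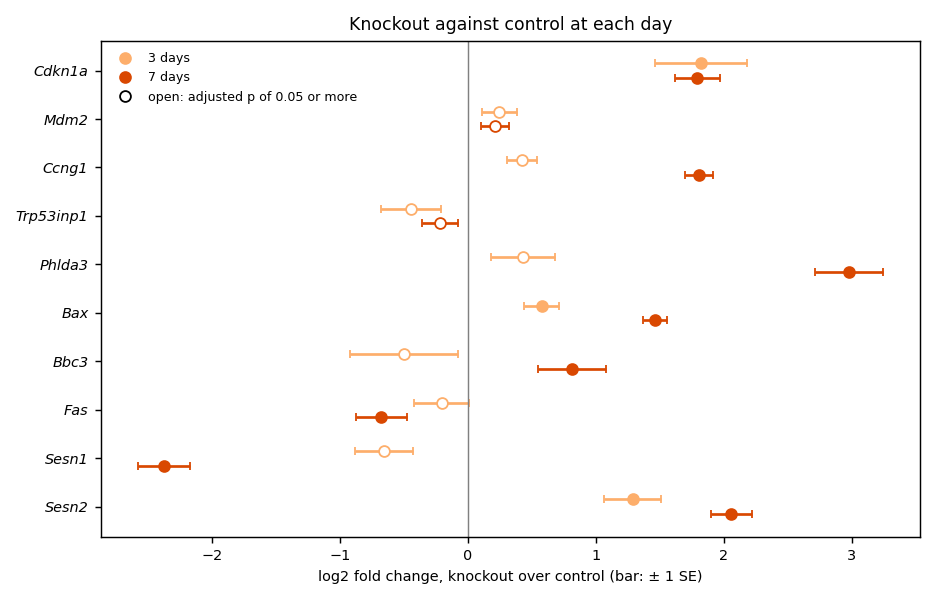
Log2 fold change of knockout over control mice (x axis, points; bars ± 1 SE) for each gene (y axis) at 3 and 7 days; open points did not pass an adjusted p of 0.05. *Cdkn1a* was at 1.82 and 1.79 at the 2 days, while *Phlda3* went from 0.43 to 2.98 and *Sesn1* from -0.66 to -2.37.

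Taken by mouse, the ranges of the groups at 7 days did not overlap for 6 of the 10 genes, against 22.6% of all genes tested at that day, and at 3 days they overlapped for all 10, where 0.848% of all genes did not overlap. Knockout replicate 1 at 3 days, 1 of the stomach-rich libraries, had the lowest level of its group for 6 genes (*Cdkn1a*, *Ccng1*, *Bax*, *Fas*, *Sesn1* and *Sesn2*) and the highest for *Trp53inp1* and *Phlda3*. Its summed level of 12 ATF4 and CHOP genes was also the lowest of the knockout mice, 783 CPM against a group median of 1660 CPM, and above the highest control (455 CPM). Stomach-rich libraries left out, 4 of the 10 genes passed at 3 days and 8 at 7 days, and pancreas-rich libraries left out, 1 (*Sesn2*) passed at 3 days and 8 at 7 days. The part of the neighbouring organs' RNA in the 3-day differences was not tested further.

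**Figure D3:**
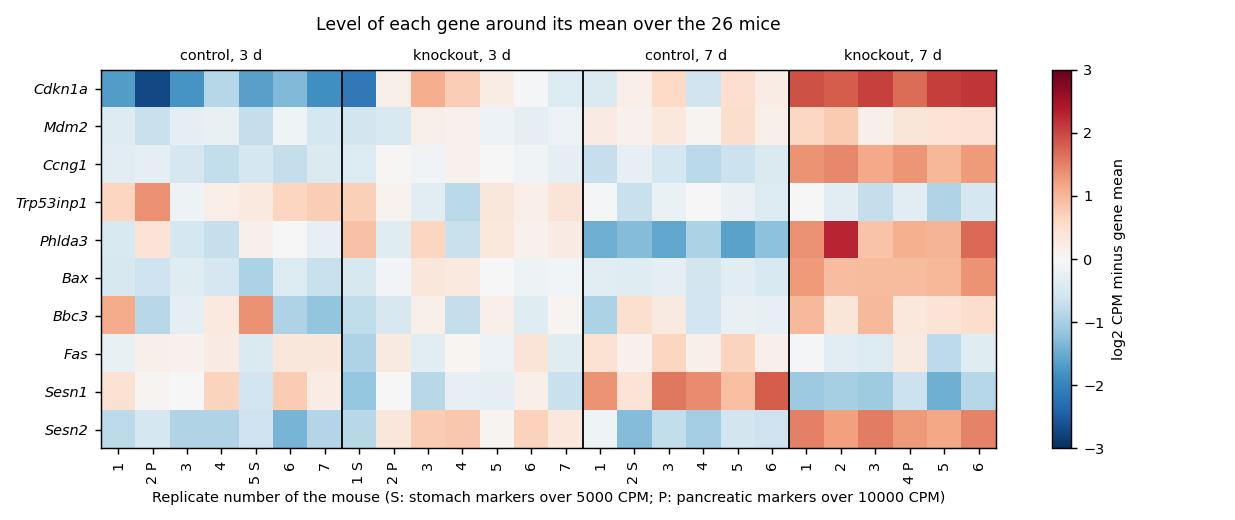
Level of each gene (rows) in each mouse (columns, by group and replicate number) as TMM-scaled log2 CPM minus the mean of the gene over the 26 mice, blue below and red above the mean. Knockout replicate 1 at 3 days (1 S) is bluer than the other 3-day knockout mice for *Cdkn1a*, *Sesn1* and *Sesn2*.

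The effect of the genotype was larger or smaller at 7 than at 3 days for 4 of the 10 genes, *Ccng1*, *Phlda3* and *Bax* upward and *Sesn1* downward, where 18.4% of 19604 genes passed the interaction test (8.64% upward and 9.74% downward). In control mice *Cdkn1a*, *Mdm2* and *Sesn1* were higher, and *Trp53inp1* and *Phlda3* lower, at 7 than at 3 days, where 38.4% of the genes tested passed (19% rising, 19.3% falling). In knockout mice 7 genes were higher at 7 days (*Cdkn1a*, *Mdm2*, *Ccng1*, *Phlda3*, *Bax*, *Bbc3* and *Sesn2*) and *Trp53inp1* and *Sesn1* lower (20.1% of the genes tested rose and 20.2% fell, 40.3% in all). *Bbc3* was near the threshold there (log2 0.93, adjusted p = 0.046): the call was lost in 6 of 13 fits without a single mouse (knockout replicates 1, 2, 4 and 6 at 3 days and 1 and 3 at 7 days, adjusted p up to 0.085), with library totals (0.14), with no filter on low counts (0.061) and without the pancreas-rich libraries (0.0501). The make-up of the tissue pieces moved with the day as well: in control mice 6 of 6 epithelial markers were higher, and 6 of 6 smooth muscle and 6 of 6 fibroblast markers lower, at 7 than at 3 days (5 of 6 fibroblast markers without the pancreas-rich libraries). Their part in the changes over time was not tested. Scaled by library totals alone, the median of all genes shifted to -0.41 (log2) in control and -0.35 in knockout mice between the days, and *Ccng1* was then called lower in control mice.

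Cell type markers also moved with the genotype at 7 days, when 19.7% of all genes tested were higher and 18.8% lower. Of the epithelial markers 3 of 6 were lower in knockout mice, and their summed level was 2905 to 3406 CPM against 3917 to 4885 CPM. Intestinal stem cell markers were lower for 4 of 5, with a sum of 180.5 to 239 CPM against 492.9 to 668 CPM, and plasma cell markers were lower for 5 of 6 and higher for 1. The 3 Brunner gland markers were called lower through control replicate 2, a stomach-rich library with 28286 CPM: the other 5 control mice, at 2.31 to 50.8 CPM, overlapped the knockout mice at 1.71 to 82.6 CPM, and without that library 0 of 3 passed (0 also at an unadjusted p under 0.05). Smooth muscle and macrophage markers passed for 0 of 6 each (also 0 at an unadjusted p under 0.05), and fibroblast markers were higher for 2 of 6 (1 without the pancreas-rich library). At 3 days 0 of 5 stem cell markers passed, with 2 lower at an unadjusted p under 0.05. Their sum was 671 to 1013 CPM in knockout and 1008 to 1213 CPM in control mice. Of the plasma cell markers 0 of 6 passed (1 lower without the stomach-rich libraries). At an unadjusted p under 0.05, 4 of them were lower (1 without the pancreas-rich libraries). The part of these shifts in the levels of the 10 genes was not tested.

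p53 and its regulators were measured beside the targets. At 3 days 0 of the 15 regulators tested passed in either direction (also 0 at an unadjusted p under 0.05 and 0 in DESeq2), and at 7 days 5 were higher and 3 lower, with a median log2 fold change of 0.05 (4 higher and 4 lower, with a median of -0.06, without the stomach-rich library). Over all genes tested at 7 days, 19.7% were higher and 18.8% lower. *Trp53*, the gene of p53, was 0.54 ± 0.15 higher at 7 days (log2, adjusted p = 0.0059) with 19.4 ± 2.92 CPM in knockout and 13.7 ± 3.32 CPM in control mice. *Mdm4*, the relative of MDM2 that binds and inhibits p53, was 0.50 ± 0.08 higher (adjusted p = 8.2e-05). The checkpoint kinase gene *Chek1* was lower (-0.71 ± 0.21, adjusted p = 0.013), as was *Hipk2*, whose kinase phosphorylates p53 (-1.13 ± 0.10, adjusted p = 4.8e-08). mRNA levels do not measure the amount or activity of the p53 protein.

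Among 47 other p53 targets, all tested, 4 were higher and 0 lower at 3 days, and 24 were higher and 4 lower at 7 days, with list medians of 0.13 and 0.30 on the log2 scale. Of all genes tested, 1.11% were higher and 0.323% lower at 3 days, and 19.7% and 18.8% at 7 days. The 0 lower at 3 days became 3 at an unadjusted p under 0.05 and remained 0 in DESeq2. The count of 4 at 3 days ranged from 1 to 6 with a mouse left out, was 1 without knockout replicate 3, 4 or 7 or control replicate 1, 2 or 4 (each left out alone), and was 1 (*Gdf15*) without the pancreas-rich libraries and 5 without the stomach-rich ones. *Gdf15*, which encodes a secreted stress cytokine, had the largest difference of the list at both days: it averaged 40.7 ± 19.2 CPM in knockout and 2.94 ± 1.19 CPM in control mice at 3 days (log2 3.88 ± 0.37, adjusted p = 3.4e-05) and 118 ± 29.9 against 2.29 ± 0.79 CPM at 7 days (5.71 ± 0.20, adjusted p = 3.2e-13). *Plk3*, a stress-responsive polo-like kinase, was higher at both days (1.77 and 1.68), as were the death receptor gene *Tnfrsf10b* (1.004 and 1.11) and *Hbegf*, an EGF receptor ligand (0.96 and 0.89). These 3 calls were near the threshold at 3 days. Without the pancreas-rich libraries all were lost (adjusted p 0.091 for *Plk3*, 0.16 for *Tnfrsf10b* and 0.072 for *Hbegf*). The one for *Plk3* (adjusted p = 0.035) was lost in 9 of 14 fits without a single mouse, the exceptions being knockout replicates 1, 2 and 6 and control replicates 5 and 7. That for *Tnfrsf10b* (0.046) was lost in 12, all but those without knockout replicate 1 or control replicate 6. The *Hbegf* call (0.025) was lost in 7, without knockout replicates 3, 4 and 7 or control replicates 1, 2, 4 and 7, and at 7 days (0.024) it was lost in 5 of 12, without knockout replicate 2 or control replicates 1, 4, 5 and 6. At 7 days *Epha2*, an ephrin receptor, was also higher (1.25 ± 0.25), and *Steap3*, a ferrireductase, was lower (-1.81 ± 0.26). *Gdf15* and *Tnfrsf10b* are genes that other stress pathways can induce too. *Btg2*, *Perp* and *Pmaip1*, which were chosen for naming after their values were seen, did not pass (0.14, 0.06 and -0.26 at 7 days).

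The other CDK inhibitors and growth arrest genes were more often lower than higher at 7 days. Of 25 tested, 1 was higher and 0 lower at 3 days (3 lower at an unadjusted p under 0.05, 0 in DESeq2), and 4 were higher and 11 lower at 7 days, with a median of -0.26 (log2). The 7-day shares over all genes were 19.7% higher and 18.8% lower. At 7 days *Cdkn3*, a phosphatase of CDKs, was at -2.23 ± 0.28, and *Cdkn2c*, which encodes the CDK4 and CDK6 inhibitor p18, at -2.05 ± 0.24. *Btg1*, an anti-proliferative factor (1.95 ± 0.14), and *Ndrg1*, a stress-induced growth suppressor (1.99 ± 0.13), were higher, and *Ndrg1* was the gene that passed at 3 days (0.78 ± 0.18, adjusted p = 0.037). That call was lost in 12 of 14 fits without a single mouse, all but those without knockout replicate 1 or control replicate 6 (adjusted p up to 0.086), and without the pancreas-rich libraries (0.11), so that the list then had 0 calls, and it had 2 without the stomach-rich ones. The nearest relatives of *Cdkn1a* parted from it: *Cdkn1b*, the gene of p27, did not pass (0.23 ± 0.12) and *Cdkn1c*, the gene of p57, was lower (-1.33 ± 0.20, adjusted p = 3.1e-05).

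Genes of the cell cycle did not pass at 3 days, 0 of 39 in edgeR, although 5 were higher and 1 lower at an unadjusted p under 0.05 and DESeq2 called 1 higher and 1 lower. At 7 days 31 were lower and 3 higher, with a median of -1.10 (log2), and the change of the effect between the days passed for 29 downward and 2 upward. Over all genes 18.8% were lower and 19.7% higher at 7 days, and the interaction passed for 9.74% downward and 8.64% upward. *Ccnb2*, a mitotic cyclin (-2.19 ± 0.12), *Mcm6*, a subunit of the replicative helicase (-1.98 ± 0.16), *Birc5*, the gene of survivin (-1.88 ± 0.14), and *Mki67*, the gene of the proliferation marker Ki67 (-1.75 ± 0.15), were lower. *Cdkn1a* was higher at both days, and its 3-day call held in 7 of 10 alternative fits (adjusted p up to 0.068). Only 1.43% of all genes passed at 3 days, so 0 calls among the 39 does not show that cycling was unaffected then. The paper reports strongly suppressed IEC proliferation already at that earlier day. Whether *Cdkn1a* rose before these genes fell was not tested. The stem cell markers above fell at 7 days too, and their part in the fall of the cell cycle genes was not tested.

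Apoptosis genes other than *Bax*, *Bbc3* and *Fas* were mostly lower where they moved. At 3 days 1 of 31 tested was higher and 0 lower (4 lower at an unadjusted p under 0.05 and 3 lower in DESeq2). The gene was *Tnfrsf10b*, which is also counted among the other p53 targets and the relatives, and with a mouse left out the count ran from 0 (knockout replicate 2 among others) to 4 (knockout replicate 1). Without the pancreas-rich libraries it was 0, and without the stomach-rich ones 2 were higher and 2 lower. At 7 days 4 of 32 were higher and 15 lower, with a median of -0.31 (log2), where 19.7% of all genes were higher and 18.8% lower. *Tnfsf10*, the gene of the death ligand TRAIL (-2.48 ± 0.14), and *Casp6*, a caspase gene (-1.90 ± 0.11), were lower. Higher *Bax* and *Bbc3* thus stood beside lower *Casp6* and *Tnfsf10* in the same libraries, and *Bak1*, the closest relative of *Bax*, was lower (-0.47 ± 0.09, adjusted p = 0.00041).

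**Figure D4:**
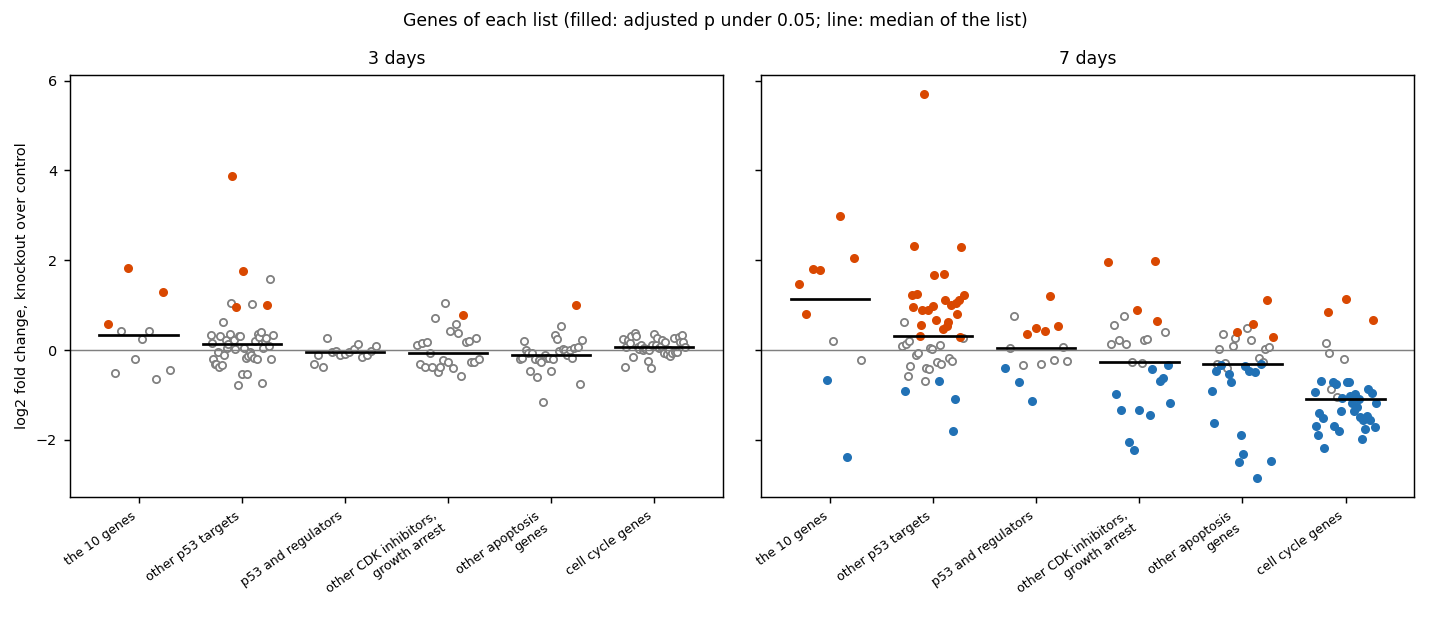
Log2 fold change of knockout over control mice (y axis) for the genes of each list (x axis) at 3 days (left) and 7 days (right); filled points passed an adjusted p of 0.05, orange higher and blue lower, and the black line is the median of the list. The medians at 7 days were 1.14 for the 10 genes, 0.30 for the other p53 targets and -1.10 for the cell cycle genes.

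Nearest family relatives showed which changes extended beyond a single gene. In the PHLDA family, *Phlda2* was higher at 3 days (2.14 ± 0.51, adjusted p = 0.043) and 7 days (3.15 ± 0.39), and *Phlda1* at 7 days (2.20 ± 0.21). The 3-day call of *Phlda2* was lost in 11 of 14 fits without a single mouse (adjusted p up to 0.10), the exceptions being knockout replicates 1 and 6 and control replicate 5, and without the pancreas-rich libraries (0.11). *Sesn3*, the remaining sestrin, did not pass (0.39 ± 0.17 at 7 days, adjusted p = 0.071), so that the family held a gene that rose, a gene that fell and a gene that did not pass. *Ccng2*, the relative of *Ccng1*, was lower (-0.99 ± 0.17), while *Trp53inp2*, the relative of *Trp53inp1*, was higher (0.68 ± 0.09, adjusted p = 5.2e-06). *Bcl2l11*, the gene of the BH3-only protein BIM, was lower (-0.34 ± 0.11), and *Pmaip1*, *Bok* and *Tnfrsf1a* did not pass (-0.26, 0.27 and 0.08). In all, 2 of 14 relatives, *Phlda2* and *Tnfrsf10b*, were higher at 3 days, where 1.11% of all genes were. At 7 days 5 relatives were higher and 4 lower, against 19.7% and 18.8% of all genes. The 3-day count ran from 0 (without knockout replicate 2 among others) to 3 (without knockout replicate 1) and was 0 without the pancreas-rich libraries and 4 (3 higher and 1 lower) without the stomach-rich ones.

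Genes of ATF4 and CHOP, the integrated stress response, are given for comparison because *Sesn2* can be activated by both pathways. Of 11 tested, 10 were higher at 3 days, where 1.11% of all genes were, and 11 at 7 days, where 19.7% were. The list medians were 2.23 and 3.82 (log2), and 0 were lower (0 also at an unadjusted p under 0.05 at 3 days). Without the pancreas-rich libraries 9 were higher at 3 days, *Atf3*, a stress-induced transcription factor, being lost (adjusted p = 0.069). *Trib3*, a pseudokinase, was at 4.32 ± 0.45 and 4.69 ± 0.20, and *Ddit3*, the gene of CHOP, at 1.88 ± 0.26 and 4.06 ± 0.15. Their summed level was 783 to 1779 CPM in knockout and 347 to 455 CPM in control mice at 3 days, and 2609 to 3612 CPM against 324 to 416 CPM at 7 days. *Chac1* (3.39 and 4.97) and the cystine transporter gene *Slc7a11* (4.22 and 9.79) were higher at both days, as was *Psat1* of serine synthesis (3.36 and 3.67).

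The genes whose levels followed each member most closely over the 26 libraries were found as those with the smallest root mean square difference of gene-centred log2 CPM among 12721 genes, a description in which the points share depth and tissue make-up. For *Cdkn1a* they were *Igsf23* (0.32), *Rhof* (0.35) and *Pklr* (0.43), beside the spread of *Cdkn1a* about its own mean of 1.42. *Ccng1* was nearest to *Krtcap2* (0.21), *Eif5* (0.23) and *Ywhag* (0.23), with a spread of its own of 0.73, and *Bax* to *Aldoa* (0.18), *Gtf2f2* (0.19) and *Ccdc47* (0.21), with 0.65. *Phlda3* was nearest to *Dusp3* (0.35), *Slc43a3* (0.38) and *Rapgef4* (0.40), with 1.03. *Sesn2* was nearest to *Phf10* (0.32), *Mars1* (0.32) and *Gm9892* (0.33), with 0.95, and *Sesn1* to *Plbd1* (0.33), the caspase gene *Casp6* (0.35) and *Chpt1* (0.35), with 0.91. *Fas* lay closest to *Spcs2* (0.23), *Dnmbp* (0.25) and *Gmcl1* (0.25), beside 0.40, and *Bbc3* had no close match, its nearest genes *Rce1* (0.50), *Smim14* (0.51) and *Fam3a* (0.52) being nearly as far as its own spread of 0.68. The members themselves were left out of the genes compared, so whether they followed one another was not tested.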

How the data were processed

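Libraries were made with the QuantSeq 3′ kit from proximal SI tissue of 26 mice. Per the study's methods and the submitters' processing notes, the authors trimmed the reads with cutadapt 2.10, aligned them with Subread to GRCm38 with ERCC sequences and counted them with featureCounts 2.0.1 over Ensembl exons, splitting reads that overlapped several genes. No strand option is given in the sources used here, so a gene and one opposite to it may share reads. The deposited table holds estimated counts, 95% of which are whole (tolerance 0). A second table that the authors deposited, of CPM, matched counts scaled by library totals (largest difference 1.46e-11) and was not used further. The 92 spike-in rows hold 0 counts. Some genes, the targeted gene included, are not reported here.

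The design had been written for whole counts, so values were rounded. Genes with a zero count in more than 50% of the mice of either genotype were left out. Knockout and control mice were compared in edgeR 4.0.16 (R 4.3.3) by the quasi-likelihood test, with TMM scaling, each day fitted on its own and a Benjamini-Hochberg adjusted p under 0.05 over all genes tested, and the days with a fit of all 26 libraries. The SE of a log2 fold change is its size over the square root of the F statistic. CPM values in the text are not TMM-scaled. No mouse enters both days. Day was not separable from any difference in handling between the days. In simulated data 200 genes, each with at least 20 expected counts, were changed by 2-fold or more and all others were left equal. The 3-day fit recovered 86.5% of the 200 (among 19436 genes), the 7-day fit 85.5% (19468 genes) and the interaction 74.5% (19333 genes). Of the 2-fold changes alone, 77.1%, 76.6% and 52.6% were recovered. Recovery of genes with fewer counts, or with RNA of neighbouring organs present, was not tested.

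The 10 members and all lists were chosen with earlier results of these data known. Genes named from each list were up to 4 with the largest difference at 7 days among those that passed with a mean of at least 20 counts, up to 4 that passed at 3 days, all nearest relatives, and the 3 genes closest to each member that passed at either day. Alternatives were DESeq2 1.42.0, DESeq2 size factors, library totals, filterByExpr, no filter, a replicate block, marker scores as covariates, 1 fit of all libraries, a minimum 2-fold change and each mouse left out. Leaving out the stomach-rich and pancreas-rich libraries, and the fits without a single mouse for genes of the lists, were chosen after seeing the data.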

Additional observations from a re-analysis of the deposited data

Results flagged for a closer look

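In 40 groups of CPM values (10 genes in 4 groups), 1 group held a mouse that lay far from the others, where chance gives about 1 in 20 groups, or 2 of 40. It was *Mdm2* in control replicate 5 at 7 days, with 83.4 CPM against 73.3 CPM in the next mouse.

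The knockout effect on 4 genes differed between 3 and 7 days in the interaction test. On the log2 scale it changed by 1.40 for *Ccng1*, by 2.56 for *Phlda3*, by 0.90 for *Bax* and by -1.70 for *Sesn1*. The other 6 genes did not pass that test, which does not show that their effects were equal.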

How the results depend on the processing

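At 7 days 6 to 8 of the 10 genes passed under every alternative run (7 to 8 with a mouse left out), for the interaction 4 to 6 (4 to 6), for control mice between the days 5 to 6 (5 in each fit without a mouse) and for knockout mice 7 to 9 (6 to 9). At 3 days the main count of 3 ranged from 2 to 4 with a mouse left out, was 0 with a replicate block and 1 without the pancreas-rich libraries, a setting with fewer libraries, and was 2 to 4 under the others. Mice of the same number within a day mostly did not deviate together (r from -0.389 to 0.49 at 3 days and from -0.302 to 0.493 at 7 days, over 0.1 in 2 of 7 and 2 of 6 numbers, and 2 mice at each day correlated best with their own number). The labels do not say whether equal numbers mark littermates or shared handling, and these correlations cannot decide it. With the replicate block the 3-day adjusted p was 0.068 for *Cdkn1a*, 0.16 for *Bax* and 0.060 for *Sesn2*, and the 7-day calls did not change. With marker scores as covariates *Cdkn1a* at 3 days was at 1.57 (adjusted p = 0.051) and *Sesn1* at -0.87 (adjusted p = 0.033); the cause was not tested.

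Small differences changed sign. The interaction of *Cdkn1a* was 0.091 with library totals, 0.19 with the block, 0.073 with covariates, 0.14 without the pancreas-rich libraries and -0.19 to 0.21 with a mouse left out, and that of *Mdm2* was 0.056 with library totals and -0.10 to 0.047 with a mouse left out. Between the days in control mice, library totals turned *Bax* (-0.14), *Fas* (-0.033) and *Sesn2* (-0.14), and *Ccng1* was 0.042 without the pancreas-rich libraries and -0.082 to 0.053 with a mouse left out; these did not pass the test under TMM. Library totals moved the median of all genes from -0.03 to -0.14 at 3 days. With a minimum 2-fold change, 13 other p53 targets passed at 7 days in place of 28. Depth was low for *Bbc3* (5 to 40 counts per library), *Fas* (17 to 54) and *Phlda3* in control mice at 7 days (8 to 15).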

Other observations

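*Casp9*, a gene of the apoptosis list that did not pass at either day, was named after its values were seen because a few libraries set its mean. It was at 2573 CPM in knockout replicate 2 and 1419 CPM in control replicate 2 at 3 days and at 849.7 CPM in knockout replicate 4 at 7 days, the 3 libraries with over 10000 CPM of pancreatic acinar markers, and at a median of 15.4 CPM in the other 23 libraries, of which control replicate 3 at 3 days, with 7589 CPM of acinar markers, was highest (984 CPM).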
